A study of Mus musculus with 8 samples.

Results

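The 34 genes described here carry the mammalian cell through its division cycle: 2 proliferation markers, 5 D-type cyclins and partner kinases, Rb1 and E2f1, 4 genes of the cyclin E and A step, 9 genes of origin licensing and the replication fork, 3 of nucleotide supply and 9 of mitosis. They were chosen by gene symbol, with earlier results of these data known, and all 34 were found among the 24419 rows of the count table. A filter on low counts left 13646 genes for testing, among them 30 of the 34. The counts came from fibroadipogenic progenitors, resident mesenchymal cells of muscle able to become fibroblasts or adipocytes, which were sorted fresh from hindlimbs of male C57BL/6J mice. The sham group (n = 2) had sham surgery. The scrambled group (n = 3) had KPCY cells, a mouse pancreatic cancer line, injected into the pancreas after the cells were transduced with a lentiviral vector carrying a scrambled sequence. The knockdown group (n = 3) had KPCY cells whose lentiviral vector inhibited miR-27a-3p. Both tumour lines had been selected with puromycin. The inhibitor acted in the implanted cells and was not given to the progenitors, and the labels used here give neither the age of the mice nor the time after injection.

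A resting cell enters the cycle when D-type cyclins activate Cdk4 or Cdk6, which phosphorylate the retinoblastoma protein Rb1 and release E2F factors such as E2f1. E2F then drives cyclin E, the helicase subunits Mcm2 to Mcm7, Pcna and the enzymes of nucleotide supply, and Cdk2 starts replication. The mitotic genes follow later and are switched on through the CHR and CCAAT elements of their promoters. Fibroadipogenic progenitors are largely quiescent in uninjured adult muscle and divide after injury.

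No member passed the test in any of the 3 comparisons, yet the levels of many lay apart in 2 of the 3 scrambled libraries. Total counts ran from 15647436 to 28340450. Scrambled libraries 1 and 3 stood apart over all genes: on the first principal component, with 61.1% of the variance, they lay at 115.5 and 92, scrambled library 2 at -12.31 and the other 5 libraries between -47.68 and -32.32. The 8 progenitor markers summed to 29816 and 25123 CPM (counts scaled to a library total of 1e6) in scrambled libraries 1 and 3 and to between 41296 and 49675 in the others, and they did not move together. Pdgfra, a defining marker, had 1256 to 1588 CPM in all 8 libraries. Dcn was higher in scrambled libraries 1 and 3 (24984 and 21059 CPM) than in any other library. Col1a1, Col3a1, Cd34, Pi16, Dpp4 and Ly6a, the gene of the sorting marker SCA-1, were lower there than in any other library, Ly6a with 451 and 436 CPM against 933 to 1175. Results that rest on the scrambled group are therefore also given without these libraries; the part of the marker differences in them was not tested. Levels are CPM scaled by the TMM method of edgeR. In sorted bulk RNA, fewer dividing cells and less of a transcript per cell cannot be told apart.

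After TMM scaling, the summed level of the 34 genes was almost the same in every library. Their raw shares varied more, with 14701 of 28340450 counts in scrambled library 1 and 10922 of 17454630 in knockdown library 2. The scaled sum was 579 ± 9.65 CPM (SD, n = 2) in sham, 581 ± 17.8 CPM (SD, n = 3) in scrambled and 577 ± 28.8 CPM (SD, n = 3) in knockdown libraries. In the same order, the 9 mitotic genes gave means of only 7.05, 8.09 and 8.54 CPM. The 2 proliferation markers gave 4.41, 1.63 and 4.57 CPM. The total thus says little about these scarce genes. Within this total the role groups differed in opposite directions. The D-type cyclins and their kinases summed to 175, 289 and 201 CPM in scrambled libraries 1, 2 and 3, against 334 in both sham libraries and 303 to 358 in the knockdown libraries. The licensing and fork genes summed to 298, 185 and 281 CPM in the scrambled libraries, against 136 and 137 in sham and 146 to 156 in knockdown libraries. For both role groups the scrambled libraries lay outside the range of the other 5, with library 2 nearest to them.

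**Figure D1:**
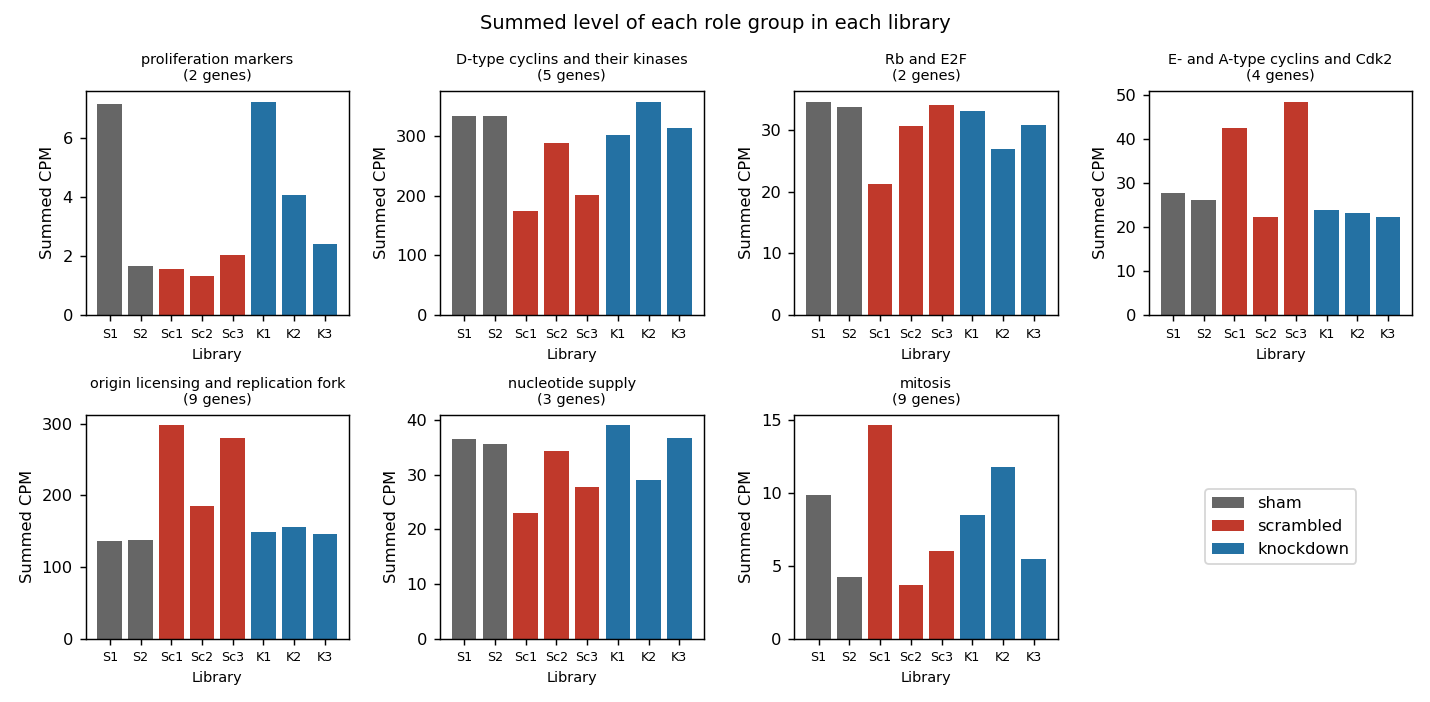
Summed CPM (bars, each axis from 0) of the 7 role groups per library (S for sham, Sc for scrambled, K for knockdown). The licensing and fork genes reach 298 and 281 in Sc1 and Sc3 and 185 in Sc2, and the D-type cyclins and kinases are at 175 and 201 there.

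Per kilobase of merged exons, Cdk4, Pcna and the D-type cyclins were among the most abundant members, and the mitotic genes and cyclins E and A had low levels. Cdk4, the kinase partner of the D-type cyclins, had the highest mean level, 21.7 CPM per kb, followed by Pcna, the sliding clamp of the fork, with 19.6. This order depends on the length used. Merged exons of Ccnd3 and Cdk4 hold 8775 and 3249 bases, and their principal transcripts 2113 and 2053. Mki67, the antigen Ki-67, and Top2a, topoisomerase II alpha, had means of 0.203 and 0.153 CPM per kb. The highest mean among the 9 mitotic genes was that of Plk1, a mitotic kinase, with 1.10 CPM per kb. Cdk6, Ccnb1, Aurkb and Bub1 did not pass the filter, with at most 17 counts in a library, and were not tested. Ccnb1, which encodes cyclin B1, was listed at 0 CPM in 3 libraries and reached 0.391 CPM in knockdown library 2.

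For scrambled against sham, 0 of 30 tested members passed edgeR's quasi-likelihood test at an adjusted p under 0.05, where 1.58% of all genes did. At an unadjusted p under 0.05 there were 7 members (5 higher, 2 lower in scrambled), or 23.3%, against 29.2% of all genes. The median log2 difference of the members was -0.04, against 0.00 over all genes tested. The groups did not overlap for 5 members higher and 6 lower in scrambled, where this held for 20.2% and 20.8% of all genes. DESeq2 called 6 members, against 15.5% of the 13344 genes to which it gave an adjusted p, and limma-voom called 0. By these counts the members as a list did not stand out from other genes.

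For knockdown against scrambled, 0 of 30 members passed edgeR's test, where 0.0513% of all genes did. At an unadjusted p under 0.05 there were 12 members (5 higher, 7 lower in knockdown), or 40%, against 32.4% of all genes, with a median log2 difference of 0.15 against 0.01. The groups did not overlap for 6 members higher and 5 lower, against 17.5% and 16.7% of all genes. DESeq2 called 5 members, against 17.4% of all genes, and limma-voom called 0. Both comparisons use the same 3 scrambled libraries, so a scrambled library that is high lowers the second difference as it raises the first.

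For knockdown against sham, 0 of 30 members passed edgeR's test, where 0.00733% of all genes did, and 0 had an unadjusted p under 0.05, where 2.37% of all genes did. DESeq2 and limma-voom also called 0. The groups did not overlap for 5 members higher and 4 lower in knockdown, against 13.8% and 13.5% of all genes. These were Mcm6, Pcna, Tyms, Rrm2 and Cdc20 on the higher side and Ccnd3, E2f1, Cdk2 and Rrm1 on the lower side. The median log2 difference was 0.13, against -0.00 over all genes tested.

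The counts for the 2 comparisons with the scrambled group also depended on 1 library. Without scrambled library 2, edgeR called 14 members for scrambled against sham, 7 higher (Birc5, Cdk2, Mcm3, Mcm6, Mcm7, Pcna and Rrm2) and 7 lower (Ccnd1, Ccnd2, Ccnd3, E2f1, Mcm2, Rrm1 and Tyms). Over all genes 25.4% were then higher and 25.6% lower. For knockdown against scrambled it also called 14 members, 7 higher (Ccnd1, Ccnd2, Cdc20, E2f1, Gins2, Mcm2 and Tyms) and 7 lower (Birc5, Ccne2, Cdk2, Mcm3, Mcm6, Mcm7 and Pcna), with 27.3% of all genes higher and 26.6% lower. With scrambled libraries 1 and 3 both left out, so that library 2 stands alone for its group and is assumed to vary like the other groups, 1 member passed for scrambled against sham (Pcna), where 3.55% of all genes did. In that fit 0 members passed for knockdown against scrambled, where 0.719% of all genes did, and 0 for knockdown against sham, where 0.741% did. Leaving out any other single library gave 0 called members in each comparison.

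**Figure D2:**
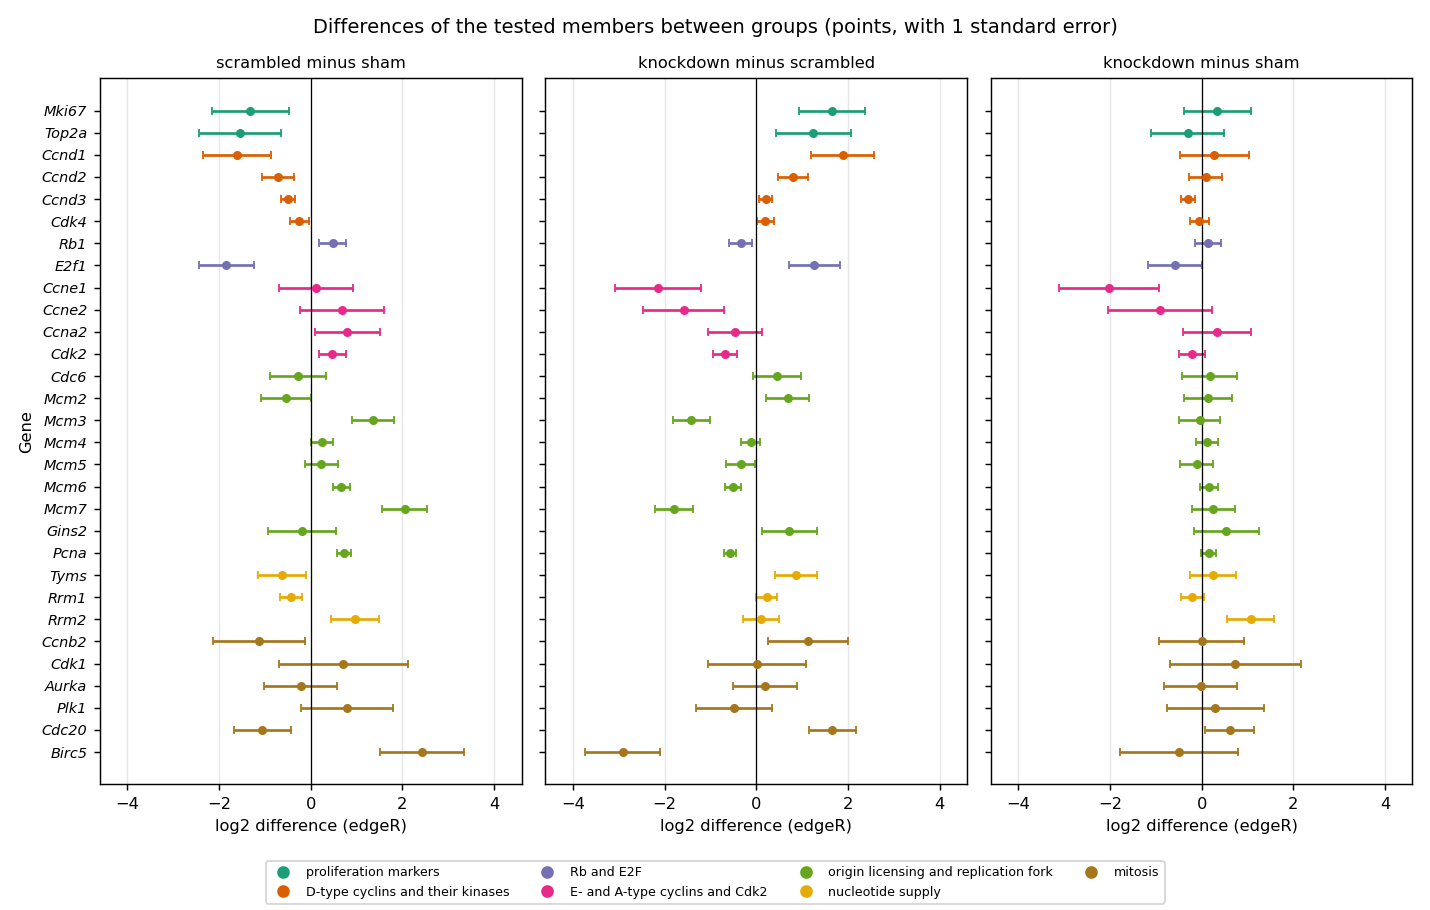
Log2 differences of the 30 tested members (points, with 1 standard error of edgeR's fit) in the 3 comparisons, coloured by role. Mcm7 lies at 2.05 for scrambled minus sham and -1.80 for knockdown minus scrambled, and E2f1 at -1.85 and 1.27; no point passes the adjusted threshold.

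The D-type cyclins couple growth signals to Cdk4 and Cdk6. Ccnd1 and Ccnd2 were lowest in scrambled libraries 1 and 3, and Ccnd3 in scrambled libraries 1 and 2. Ccnd1, the gene of cyclin D1 (chr7:144929931-144939925 in GRCm38, minus strand), had, in the order of the library numbers here and below, 46.6 and 31.1 CPM in sham, 5.96, 29.0 and 2.58 in scrambled and 36.5, 68.8 and 36.0 in knockdown libraries. Its scrambled values all lay below those of both other groups, library 2 only just. The log2 difference was -1.61 ± 0.75 (SE) for scrambled minus sham (edgeR adjusted p = 0.186) and 1.89 ± 0.69 for knockdown minus scrambled (edgeR adjusted p = 0.112). Without scrambled library 2 these became -3.08 (adjusted p = 0.000707) and 3.36 (adjusted p = 0.000279). With libraries 1 and 3 left out they were -0.41 (adjusted p = 0.772) and 0.69 (adjusted p = 0.592).

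Ccnd2, the gene of cyclin D2, had 91.6 and 113 CPM in sham, 47.1, 101 and 38.6 in scrambled and 101, 118 and 107 in knockdown libraries. Scrambled library 2 lay among the sham values and just under the lowest knockdown value, while libraries 1 and 3 held less than any other library. The differences were -0.72 ± 0.35 (edgeR adjusted p = 0.205) and 0.81 ± 0.32 (edgeR adjusted p = 0.128), and -1.24 (adjusted p = 8.55e-05) and 1.33 (adjusted p = 2.79e-05) without scrambled library 2. With libraries 1 and 3 left out they were close to 0, at -0.02 (adjusted p = 0.977) and 0.11 (adjusted p = 0.818). Ccnd3, the gene of cyclin D3, varied less, with 121 and 113 CPM in sham, 73.7, 86.0 and 88.7 in scrambled and 95.7, 89.3 and 101 in knockdown libraries. All 3 groups were in separate ranges, sham highest and scrambled lowest. Its difference was -0.50 ± 0.16 for scrambled minus sham (edgeR adjusted p = 0.103), which passed with DESeq2 (adjusted p = 0.0329) and, in edgeR, without scrambled library 2 (-0.52 with adjusted p = 0.00876). Knockdown minus scrambled was 0.20 ± 0.14 (edgeR adjusted p = 0.325). The Ccnd3 differences were -0.44 (adjusted p = 0.145) and 0.14 (adjusted p = 0.702) with libraries 1 and 3 left out. For Ccnd3, knockdown minus sham was -0.29 ± 0.16 (edgeR adjusted p = 1).

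Because the 3 cyclins differed unequally, the make-up of the D-type transcripts varied between libraries. Per kilobase of merged exons, Ccnd1 made up 8.63% and 3.72% of the 3 cyclins in scrambled libraries 1 and 3, and 21% to 39.2% in the other 6. Ccnd3 made up 57.3% and 68.5% in the same 2 libraries and 27.3% to 41.2% in the others. The share of Ccnd2 ran from 27.8% to 40.1% over all 8 libraries, with no such gap. The size of each share depends on the length used. Merged exons of Ccnd1, Ccnd2 and Ccnd3 hold 4709, 9409 and 8775 bases, and their principal transcripts 3740, 6330 and 2113. Shares with the latter lengths were not computed, and they would give Ccnd3 more weight. Cdk4 itself had 75.3 and 76.7 CPM in sham, 48.1, 72.4 and 71.3 in scrambled and 68.9, 82.4 and 68.6 in knockdown libraries. Only scrambled library 1 was clearly low for Cdk4, and neither difference passed the test (-0.25 ± 0.21 with adjusted p = 0.416, and 0.20 ± 0.19 with adjusted p = 0.461, edgeR). For Cdk4 they were -0.07 and 0.01 with libraries 1 and 3 left out.

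**Figure D3:**
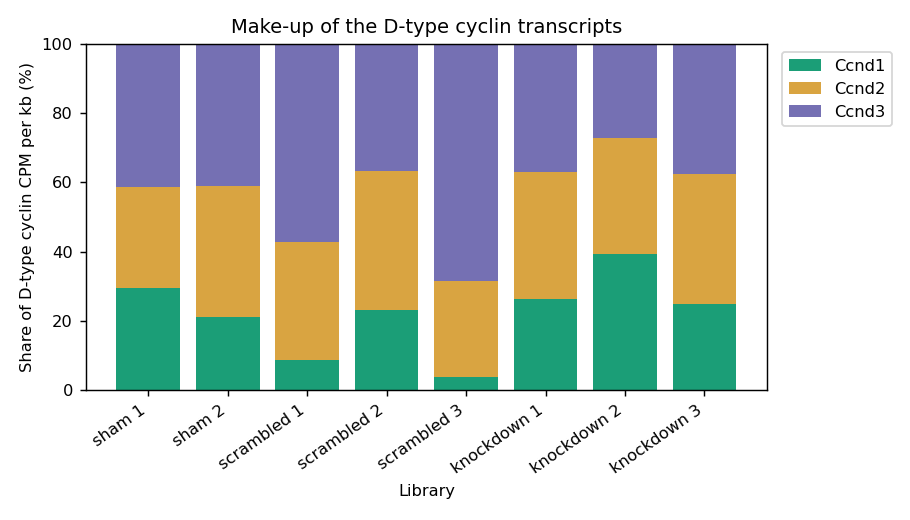
Share of Ccnd1, Ccnd2 and Ccnd3 in their summed CPM per kb of merged exons (stacked bars, percent) in each of the 8 libraries. Ccnd1 takes 8.63% in scrambled library 1 and 3.72% in scrambled library 3, against at least 21% in the others.

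Downstream of the D-type cyclins, E2f1 and Rb1 had differences of opposite sign, none of which passed the test. E2f1, an activating E2F factor, had 20.1 and 14.0 CPM in sham, 2.63, 9.85 and 1.26 in scrambled and 12.7, 10.7 and 10.7 in knockdown libraries. The groups did not overlap in any of the 3 comparisons, with sham highest and scrambled lowest. The difference was -1.85 ± 0.60 for scrambled minus sham (edgeR adjusted p = 0.106) and 1.27 ± 0.56 for knockdown minus scrambled (edgeR adjusted p = 0.153). DESeq2 called the first (adjusted p = 0.0378). Without scrambled library 2 they were -3.02 (adjusted p = 3.06e-05) and 2.44 (adjusted p = 0.000102). With libraries 1 and 3 left out they were -0.78 (adjusted p = 0.168) and 0.20 (adjusted p = 0.787). Rb1, which holds E2F factors inactive, had 14.5 and 19.8 CPM in sham, 18.6, 20.7 and 32.7 in scrambled and 20.3, 16.2 and 20.1 in knockdown libraries. The groups overlapped, with scrambled library 3 highest, and its differences were 0.48 ± 0.29 (edgeR adjusted p = 0.279) and -0.34 ± 0.25 (edgeR adjusted p = 0.357), or 0.27 and -0.13 with libraries 1 and 3 left out.

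Cyclin E and A transcripts were scarce, and Cdk2 was the one abundant gene of this step. Cdk2, the kinase that these cyclins activate, had 24.4 and 24.6 CPM in sham, 36.9, 20.8 and 44.6 in scrambled and 20.5, 22.0 and 20.9 in knockdown libraries. Scrambled library 2 lay inside the knockdown range, and libraries 1 and 3 above every other library. The differences for Cdk2 were 0.47 ± 0.29 (edgeR adjusted p = 0.289) and -0.69 ± 0.26 (edgeR adjusted p = 0.118). Both passed without scrambled library 2 (0.73 with adjusted p = 0.00328, and -0.95 with adjusted p = 0.000267), and both changed sign with libraries 1 and 3 left out (-0.24 and 0.02). Ccne1, the gene of cyclin E1, had 0.949 and 0.335 CPM in sham, 0.784, 0.465 and 0.819 in scrambled and 0.359, 0 and 0.0875 in knockdown libraries. Each knockdown value was below each scrambled value, on few reads: 7, 0 and 2 in knockdown and 20, 11 and 13 in scrambled libraries. Ccne1 passed the filter on low counts through sham and scrambled libraries and not through knockdown libraries. Its knockdown minus scrambled difference of -2.14 ± 0.94 did not pass (edgeR adjusted p = 0.143) and was -1.60 with libraries 1 and 3 left out. Ccne2, the gene of cyclin E2, had 0.633 and 0.502 CPM in sham, 1.80, 0.169 and 0.630 in scrambled and 0.565, 0.167 and 0.175 in knockdown libraries. Scrambled library 1 was high, and the groups overlapped. Scrambled minus sham was 0.68 ± 0.92 (edgeR adjusted p = 0.618) and changed sign with libraries 1 and 3 left out (-1.70 with adjusted p = 0.607). For Ccne2, knockdown minus scrambled was -1.58 ± 0.88 (edgeR adjusted p = 0.227), -2.14 (adjusted p = 0.0266) without scrambled library 2, and 0.79 (adjusted p = 0.856) with libraries 1 and 3 left out. Ccna2, the gene of cyclin A2, ranged from 0.614 to 3.10 CPM.

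The 6 genes Mcm2 to Mcm7 encode 1 ring, the replicative helicase that Cdc6 and Cdt1 load on origins, and their levels did not move as a unit. The letters upstream of their start sites are shown because E2F acts on such promoters and the ring genes parted company here. The sequences are the 250 bases before the start in RefSeq (GRCm38.p6), written 5′ to 3′ on the gene's strand; capitals mark every match, on either strand, to the E2F letters TTTCCCGC, TTTCGCGC, TTTGCCGC and TTTGGCGC, and matches that overlap on opposite strands run together.
Mcm2 (chr6:88898781-88899030, minus strand): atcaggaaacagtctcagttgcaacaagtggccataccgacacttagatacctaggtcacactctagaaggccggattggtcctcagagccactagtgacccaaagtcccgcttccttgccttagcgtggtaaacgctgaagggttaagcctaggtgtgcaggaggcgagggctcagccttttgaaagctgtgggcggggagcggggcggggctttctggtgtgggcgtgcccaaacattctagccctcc
Mcm3 (chr1:20820313-20820562, minus strand): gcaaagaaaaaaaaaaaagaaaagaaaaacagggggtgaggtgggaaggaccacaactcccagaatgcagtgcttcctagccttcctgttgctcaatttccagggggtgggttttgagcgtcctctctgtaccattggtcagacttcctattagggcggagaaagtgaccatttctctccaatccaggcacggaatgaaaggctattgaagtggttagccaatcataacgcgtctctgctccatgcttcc
Mcm5 (chr8:75109259-75109508, plus strand): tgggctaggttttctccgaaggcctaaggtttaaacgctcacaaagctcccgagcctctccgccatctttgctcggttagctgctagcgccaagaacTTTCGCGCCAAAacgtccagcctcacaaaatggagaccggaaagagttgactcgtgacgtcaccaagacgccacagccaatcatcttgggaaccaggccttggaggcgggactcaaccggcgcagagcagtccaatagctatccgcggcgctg
Mcm6 (chr1:128359706-128359955, minus strand): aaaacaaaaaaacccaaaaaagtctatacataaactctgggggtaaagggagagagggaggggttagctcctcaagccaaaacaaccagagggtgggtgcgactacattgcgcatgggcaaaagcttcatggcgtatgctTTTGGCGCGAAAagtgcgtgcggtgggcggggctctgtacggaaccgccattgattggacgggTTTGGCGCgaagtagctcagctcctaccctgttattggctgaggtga
Mcm7, downstream start (chr5:138171267-138171516, minus strand): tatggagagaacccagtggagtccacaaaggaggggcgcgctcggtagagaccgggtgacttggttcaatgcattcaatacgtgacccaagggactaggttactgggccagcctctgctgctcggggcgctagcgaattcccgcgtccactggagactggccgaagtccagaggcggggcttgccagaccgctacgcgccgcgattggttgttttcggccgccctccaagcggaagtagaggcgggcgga

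Capitals appear in the windows of Mcm5 and Mcm6 and in none of the other 3 shown. The promoter of Mcm4 was not used here. Mcm7 has a match before its upstream start, in a window that holds exons of Ap4m1 and Mcm7 and is not printed. Of the 34 members, 26 had a promoter in the RefSeq table, and 6 of these (23.1%) held the E2F letters (Cdk2, Cdc6, Mcm5, Mcm6, Mcm7 and Cdk1), against 1.86% of 32851 promoters. The CHR letters TTTGAA, searched on both strands, stood in 6 members (23.1%; Mki67, Top2a, Mcm2, Ccnb2, Cdk1 and Cdc20), against 16% of all. The CCAAT letters stood in 19 members (73.1%) against 33.8% of all. For all these letters a member counted if any of its start sites held a match, while the background counts each promoter. The shares are thus not in the same unit, and members with several starts had more chances of a match. Mcm3, with none of the E2F letters in its window, and Mcm6, with 3 matches, were both higher in scrambled libraries 1 and 3. Mcm2, also with none, was lower there. Whether the letters bear on these levels was not tested.

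Mcm7 (chr5:138164583-138172422, minus strand) differed most among the ring genes. It had 15.8 and 18.5 CPM in sham, 81.1, 27.9 and 104 in scrambled and 19.6, 24.7 and 17.0 in knockdown libraries. Each scrambled value was above every other library, library 2 by a small margin. The difference was 2.05 ± 0.49 for scrambled minus sham (edgeR adjusted p = 0.0644) and -1.80 ± 0.41 for knockdown minus scrambled (edgeR adjusted p = 0.0716). DESeq2 called both (adjusted p = 0.000547 and 0.000909). Leaving out scrambled library 2 gave 2.43 (adjusted p = 3.92e-06) and -2.19 (adjusted p = 2.41e-06). With libraries 1 and 3 left out they were 0.71 (adjusted p = 0.143) and -0.46 (adjusted p = 0.400). Knockdown minus sham was 0.25 ± 0.47 (edgeR adjusted p = 1). Exons of Ap4m1 on the opposite strand cover 7.25% of the exon bases of Mcm7, and the microRNA genes Mir25 and Mir93 lie within Mcm7 on the same strand.

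Mcm3 had 13.7 and 11.7 CPM in sham, 45.6, 13.4 and 39.5 in scrambled and 12.7, 13.4 and 10.8 in knockdown libraries. Only scrambled libraries 1 and 3 were high, and library 2 lay inside the sham range. The differences for Mcm3 were 1.37 ± 0.46 (edgeR adjusted p = 0.110) and -1.41 ± 0.40 (edgeR adjusted p = 0.0760); both passed with DESeq2 (adjusted p = 0.0285 and 0.00956). Without scrambled library 2 they were 1.76 (adjusted p = 2.57e-05) and -1.81 (adjusted p = 6.76e-06), and with libraries 1 and 3 left out 0.08 (adjusted p = 0.925) and -0.13 (adjusted p = 0.856). Mcm6 had 29.4 and 29.7 CPM in sham, 55.4, 39.8 and 45.9 in scrambled and 31.3, 36.4 and 31.5 in knockdown libraries. Here all 3 scrambled libraries were above all others. The differences for Mcm6 were 0.67 ± 0.20 (edgeR adjusted p = 0.0888) and -0.51 ± 0.17 (edgeR adjusted p = 0.0966), and DESeq2 called the first (adjusted p = 0.0252). Leaving out scrambled library 2 gave 0.79 (adjusted p = 0.00193) and -0.63 (adjusted p = 0.00339), and with libraries 1 and 3 left out 0.43 (adjusted p = 0.221) and -0.27 (adjusted p = 0.516).

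Mcm2 went the other way. It had 3.92 and 5.64 CPM in sham, 1.72, 5.92 and 2.08 in scrambled and 4.11, 6.42 and 5.38 in knockdown libraries. Scrambled libraries 1 and 3 were the lowest of the 8, while library 2 was above both sham values. The differences for Mcm2 were -0.54 ± 0.54 (edgeR adjusted p = 0.496) and 0.68 ± 0.47 (edgeR adjusted p = 0.322), and passed only without scrambled library 2 (-1.36 with adjusted p = 0.0171, and 1.49 with adjusted p = 0.00529). Both changed sign with libraries 1 and 3 left out (0.30 and -0.17). Mcm4 and Mcm5 stayed within 22.7 to 38.9 CPM and 3.35 to 6.54 CPM. Mcm2, Mcm3, Ccne2 and Gins2 were singled out after their values were seen.

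The ring genes thus spread apart in 2 libraries. Per kilobase of merged exons, the highest subunit exceeded the lowest by 73.9 times in scrambled library 1 and 78.7 times in scrambled library 3, in both cases Mcm7 over Mcm2. In scrambled libraries 1 and 3, Mcm2 had 44 and 33 reads. In the other 6 libraries the ratio was 9.15 to 14.1, with Mcm4 or Mcm6 highest. Such ratios were not computed for other sets of genes. With the length of the principal transcript in place of merged exons, a choice made after seeing the data, the ratios were 53.5 and 57.0 in scrambled libraries 1 and 3 and 7.16 to 12.6 in the others.

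**Figure D4:**
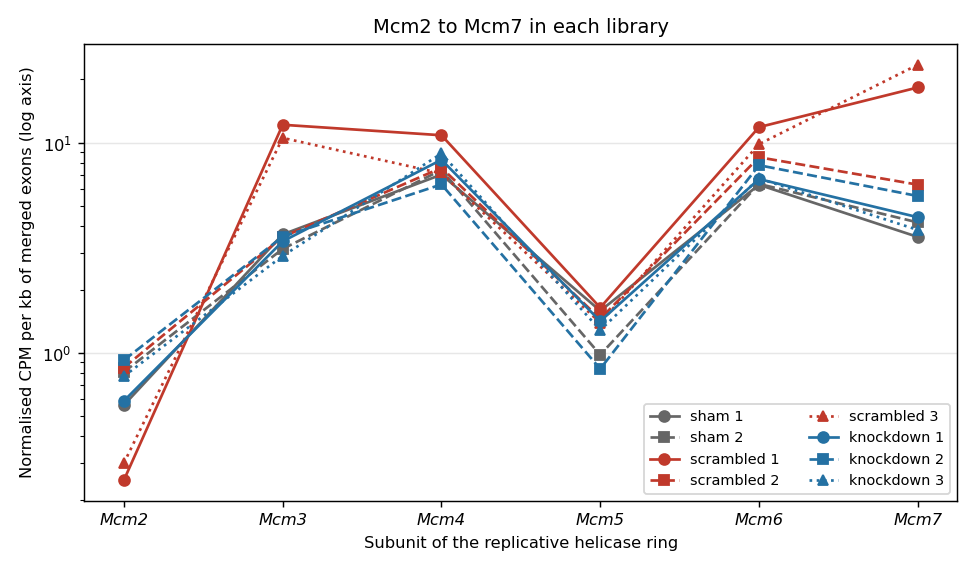
CPM per kb of merged exons (log axis) of Mcm2 to Mcm7, 1 line for each library, grey for sham, red for scrambled and blue for knockdown. In scrambled libraries 1 and 3 the line runs from 0.248 and 0.299 at Mcm2 to 18.3 and 23.5 at Mcm7, and the other 6 lines lie close together.

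Pcna, the clamp that holds the polymerases on DNA (chr2:132249162-132253314, minus strand), was the member with the smallest p for scrambled against sham and the one in which the 3 scrambled libraries were most alike. It had 36.4 and 37.0 CPM in sham, 64.3, 59.97 and 57.0 in scrambled and 41.8, 41.1 and 39.3 in knockdown libraries. All 3 scrambled libraries were above all others, and the knockdown libraries lay above the sham libraries by a small margin. The difference was 0.72 ± 0.16 for scrambled minus sham (edgeR adjusted p = 0.0564) and -0.57 ± 0.14 for knockdown minus scrambled (edgeR adjusted p = 0.0727). DESeq2 called both (adjusted p = 0.000391 and 0.00205). Without scrambled library 2 they were 0.73 (adjusted p = 0.00133) and -0.58 (adjusted p = 0.00239). With libraries 1 and 3 left out the first was 0.71 (adjusted p = 0.0221) and the second -0.56 (adjusted p = 0.0920). Knockdown minus sham was 0.15 ± 0.15 (edgeR adjusted p = 1). The size of the Pcna difference was thus nearly the same with either set of scrambled libraries. The annotation holds 2 pseudogenes named after Pcna, which could share its reads.

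Cdc6, which loads the ring, ranged from 0.819 to 4.35 CPM. Gins2, a subunit of the active helicase, had 1.96 and 1.56 CPM in sham, 0.784, 3.13 and 0.504 in scrambled and 1.90, 3.68 and 2.14 in knockdown libraries. Scrambled libraries 1 and 3 were the lowest of the 8 and library 2 the second highest. Scrambled minus sham was -0.19 ± 0.74 (edgeR adjusted p = 0.874) and changed sign with libraries 1 and 3 left out (0.84 with adjusted p = 0.506). For Gins2, knockdown minus scrambled was 0.73 ± 0.61 (edgeR adjusted p = 0.411), 1.89 (adjusted p = 0.0122) without scrambled library 2, and -0.31 (adjusted p = 0.817) with libraries 1 and 3 left out. In Gins2, exons of Gse1 on the opposite strand cover 67.3% of its exon bases, so that its value depends on how strand was counted.

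The 3 nucleotide supply genes differed from sham with mixed signs, and for knockdown minus scrambled all 3 were positive, none past the test. Rrm1, the large subunit of ribonucleotide reductase, had 30.0 and 28.8 CPM in sham, 17.7, 26.6 and 21.2 in scrambled and 28.4, 19.4 and 28.7 in knockdown libraries. Its small subunit Rrm2 had 1.64 and 1.73 CPM in sham, 3.33, 1.90 and 4.97 in scrambled and 3.59, 4.41 and 2.76 in knockdown libraries. For Rrm1 both sham libraries were above the others, and for Rrm2 below them. The scrambled minus sham difference was -0.43 ± 0.24 for Rrm1 (edgeR adjusted p = 0.256) and 0.97 ± 0.52 for Rrm2 (edgeR adjusted p = 0.231). Both passed without scrambled library 2 (-0.60 with adjusted p = 0.0359, and 1.25 with adjusted p = 0.0356), and they were -0.14 and 0.17 with libraries 1 and 3 left out. Knockdown minus scrambled was 0.23 ± 0.22 for Rrm1 (edgeR adjusted p = 0.478) and 0.10 ± 0.40 for Rrm2 (edgeR adjusted p = 0.866), or -0.06 and 0.89 with libraries 1 and 3 left out. For Rrm2, knockdown minus sham was 1.07 ± 0.52 (edgeR adjusted p = 1). Tyms, the thymidylate synthase, had 4.81 and 4.97 CPM in sham, 1.96, 5.75 and 1.57 in scrambled and 6.98, 5.19 and 5.20 in knockdown libraries. Scrambled libraries 1 and 3 were low and library 2 was not. The differences for Tyms were -0.62 ± 0.52 (edgeR adjusted p = 0.422) and 0.87 ± 0.46 (edgeR adjusted p = 0.211), and -1.43 (adjusted p = 0.00947) and 1.67 (adjusted p = 0.00168) without scrambled library 2. With libraries 1 and 3 left out they were 0.24 (adjusted p = 0.814) and 0.00456 (adjusted p = 0.997).

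The markers of dividing cells were low and uneven in every group. Mki67 had 3.86 and 0.781 CPM in sham, 0.549, 0.549 and 1.89 in scrambled and 3.95, 3.35 and 1.44 in knockdown libraries. Top2a had 3.29 and 0.893 CPM in sham, 1.02, 0.761 and 0.126 in scrambled and 3.28, 0.726 and 0.962 in knockdown libraries. Sham library 1 and knockdown library 1 were high for both genes, and the groups overlapped in each comparison. For Mki67 the differences were -1.32 ± 0.84 (edgeR adjusted p = 0.300), 1.66 ± 0.72 for knockdown minus scrambled (edgeR adjusted p = 0.149) and 0.34 ± 0.73 for knockdown minus sham (edgeR adjusted p = 1). For Top2a they were -1.55 ± 0.89 (edgeR adjusted p = 0.259), 1.24 ± 0.82 (edgeR adjusted p = 0.299) and -0.31 ± 0.80 (edgeR adjusted p = 1). The first 2 differences were -2.01 and 2.35 for Mki67 and -1.40 and 1.10 for Top2a with libraries 1 and 3 left out.

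Among the mitotic genes, Birc5 and Cdc20 had the smallest p, in opposite directions. Birc5, the gene of survivin, a subunit of the chromosomal passenger complex, had 0.759 and 0.167 CPM in sham, 4.58, 0.803 and 1.64 in scrambled and 0.359, 0.223 and 0.350 in knockdown libraries. Scrambled library 1 was highest, and each scrambled value exceeded every value of the other groups, library 2 only just. In reads, Birc5 had 12 and 3 in sham, 117, 19 and 26 in scrambled and 7, 4 and 8 in knockdown libraries. Birc5 thus passed the filter on low counts mainly through the group in which it was high. Its differences and calls rest on few reads in the other groups. The differences for Birc5 were 2.42 ± 0.92 (edgeR adjusted p = 0.128) and -2.92 ± 0.81 (edgeR adjusted p = 0.0742), and DESeq2 called the second (adjusted p = 0.0138). Both passed in edgeR without scrambled library 2 (2.91 with adjusted p = 0.00517, and -3.40 with adjusted p = 0.000860). Without scrambled library 1 the first was 1.37 (adjusted p = 0.336). They were 0.84 (adjusted p = 0.750) and -1.34 (adjusted p = 0.573) with libraries 1 and 3 left out. Cdc20, which activates the anaphase-promoting complex, had 1.52 and 1.51 CPM in sham, 0.470, 0.972 and 0.756 in scrambled and 1.85, 3.63 and 1.57 in knockdown libraries. All scrambled values were below all others. The differences for Cdc20 were -1.05 ± 0.62 (edgeR adjusted p = 0.266) and 1.66 ± 0.51 (edgeR adjusted p = 0.0857), and DESeq2 called the second (adjusted p = 0.0352), as did edgeR without scrambled library 2 (1.96 with adjusted p = 0.0174). They were -0.63 (adjusted p = 0.772) and 1.22 (adjusted p = 0.478) with libraries 1 and 3 left out.

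Ccnb2, the gene of cyclin B2, had 2.53 and 0.335 CPM in sham, 0, 0.972 and 1.07 in scrambled and 1.54, 1.51 and 1.14 in knockdown libraries. Its knockdown values lay above its scrambled values, and its difference of 1.13 ± 0.88 did not pass (edgeR adjusted p = 0.372); it was 0.50 with libraries 1 and 3 left out. Plk1 ranged from 0.465 to 6.66 CPM, Cdk1 from 0 to 1.33 CPM and Aurka, another mitotic kinase, from 0.296 to 1.53 CPM, each highest in scrambled library 1. That library also held 103 reads of Epcam, 240 of Cdh1, 31 of Krt8 and 17 of Krt18, markers of epithelial tumour cells, where the other 7 libraries held at most 9, 56, 1 and 3. The other 2 markers of that list were low in it: Krt7 had 0 reads, against 71 and 30 in sham and 25 to 31 in knockdown libraries, and Krt19 had 14, against 37 and 47 in sham and 24 to 68 in knockdown libraries. Their part in the levels of Birc5, Plk1, Cdk1 and Aurka was not tested.

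**Figure D5:**
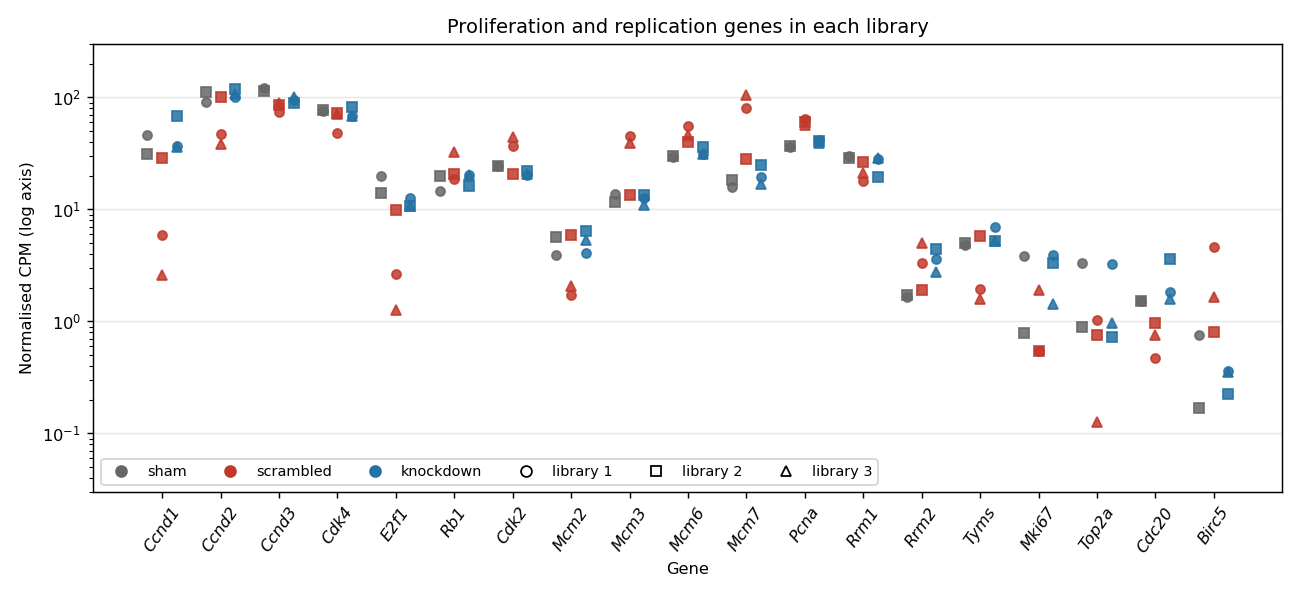
Normalised CPM (log axis) of 19 members in each library, with colour for the group and marker shape for the library number. For Ccnd1, Ccnd2, E2f1, Mcm2, Mcm3, Mcm7 and Tyms, scrambled libraries 1 and 3 (red circle and triangle) lie away from scrambled library 2 (red square), while for Pcna the 3 red points, 57.0 to 64.3, lie together.

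Of 101 further genes of the same pathways, 89 were tested and 0 passed edgeR's test in any comparison. At an unadjusted p under 0.05 there were 23 for scrambled against sham (14 higher, 9 lower), 27 for knockdown against scrambled (11 higher, 16 lower) and 2 for knockdown against sham; over all genes the shares were 29.2%, 32.4% and 2.37%. DESeq2 called 13, 14 and 0, where it called 15.5% and 17.4% of all genes in the first 2 comparisons, and limma-voom called 0 in each. With scrambled library 2 left out, edgeR called 45 and 55 in the first 2 comparisons. In that fit 25.4% of all genes were called higher and 25.6% lower in the first, and 27.3% and 26.6% in the second. The median log2 differences of the pathway genes were -0.06, 0.03 and 0.01, against 0.00, 0.01 and -0.00 over all genes.

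The CDK inhibitors held the gene nearest to the threshold. Cdkn1a, the gene of p21, which inhibits Cdk2 and binds Pcna, had 103 and 119.5 CPM in sham, 809.6, 251 and 417 in scrambled and 268, 218 and 249.7 in knockdown libraries. Every library with a tumour was above both sham libraries. The differences for Cdkn1a were 2.15 ± 0.44 for scrambled minus sham (edgeR adjusted p = 0.0502), -1.01 ± 0.36 for knockdown minus scrambled (edgeR adjusted p = 0.107) and 1.14 ± 0.42 for knockdown minus sham (edgeR adjusted p = 1). The first passed with DESeq2 (adjusted p = 2.26e-05), without a filter (adjusted p = 0.0396), without scrambled library 2 (adjusted p = 5.61e-05) and with scrambled libraries 1 and 3 left out (adjusted p = 0.00210). The second passed with DESeq2 (adjusted p = 0.0408) and without scrambled library 2 (-1.33 with adjusted p = 0.000867), and was -0.04 (adjusted p = 0.950) with libraries 1 and 3 left out. The last passed when only the knockdown and sham libraries were fitted (adjusted p = 0.00286) and when scrambled libraries 1 and 3 were left out (adjusted p = 0.00258). Cdkn2d, an inhibitor of Cdk4 and Cdk6, had 19.0 and 22.3 CPM in sham, 48.9, 29.6 and 49.6 in scrambled and 24.1, 25.1 and 22.2 in knockdown libraries, with differences of 1.05 ± 0.25 (edgeR adjusted p = 0.0668) and -0.84 ± 0.22 (edgeR adjusted p = 0.0727). DESeq2 called both for Cdkn2d (adjusted p = 0.00504 and 0.0116), as did edgeR without scrambled library 2, and with libraries 1 and 3 left out they were 0.52 (adjusted p = 0.176) and -0.32 (adjusted p = 0.475).

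Of 32 other replication genes, 31 were tested; at an unadjusted p under 0.05, 5 were higher and 2 lower in scrambled than in sham libraries, or 22.6%, against 29.2% of all genes. Cdt1, which loads the Mcm ring with Cdc6, had 2.59 and 2.12 CPM in sham, 15.2, 3.42 and 11.8 in scrambled and 2.62, 3.24 and 2.41 in knockdown libraries. Gins1, a partner of Gins2, had 1.14 and 0.502 CPM in sham, 10.1, 1.56 and 7.30 in scrambled and 0.719, 1.06 and 1.53 in knockdown libraries. Both were highest in scrambled libraries 1 and 3, as Mcm3 and Mcm7 were. For Cdt1 the differences were 2.11 ± 0.63 (edgeR adjusted p = 0.0932) and -1.88 ± 0.52 (edgeR adjusted p = 0.0750), and for Gins1 2.96 ± 0.88 (edgeR adjusted p = 0.0942) and -2.48 ± 0.69 (edgeR adjusted p = 0.0760). DESeq2, and edgeR without scrambled library 2, called all 4. In the fit without scrambled libraries 1 and 3 they were 0.55 and -0.33 for Cdt1 and 0.96 and -0.48 for Gins1, with adjusted p from 0.593 to 0.787. Timeless, a fork protection factor, had 10.2 and 7.87 CPM in sham, 15.5, 29.7 and 14.9 in scrambled and 13.7, 18.7 and 18.9 in knockdown libraries. Scrambled library 2 was highest for Timeless, and every library with a tumour was above sham. For Timeless, knockdown minus sham was 0.92 ± 0.36 (edgeR adjusted p = 1) and scrambled minus sham 1.15 ± 0.36 (edgeR adjusted p = 0.100). The latter passed with DESeq2 (adjusted p = 0.0227), without scrambled library 2 (0.76 with adjusted p = 0.0215) and with libraries 1 and 3 left out (1.72 with adjusted p = 0.00290).

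Of 37 other mitosis genes, 29 were tested, with a median log2 difference of -0.88 for scrambled minus sham and 0.86 for knockdown minus scrambled, against 0.00 and 0.01 over all genes. At an unadjusted p under 0.05, 2 were higher and 6 lower in the first comparison, and 7 higher and 0 lower in the second. These were 27.6% and 24.1% of the list, against 29.2% and 32.4% of all genes. The 6 tested mitotic members had median log2 differences of 0.25 and 0.11 in the same comparisons. Medians of either list were not computed with scrambled libraries 1 and 3 left out. Cenpa, the centromeric histone, had 1.27 and 1.51 CPM in sham, 0.0392, 0.380 and 0.189 in scrambled and 1.49, 1.12 and 0.875 in knockdown libraries. Its scrambled values were all below the others, with differences of -2.76 ± 0.73 (edgeR adjusted p = 0.0700) and 2.49 ± 0.67 (edgeR adjusted p = 0.0727). These Cenpa levels, at most 1.51 CPM, rest on few reads. The Cenpa differences in the fit with scrambled libraries 1 and 3 left out were -1.85 (adjusted p = 0.311) and 1.57 (adjusted p = 0.463). Cenpe, a kinetochore motor, had a difference of 3.58 ± 0.94 for knockdown minus scrambled (edgeR adjusted p = 0.0727), and 3.88 (adjusted p = 0.363) in that reduced fit. Espl1, which encodes separase, had one of -1.84 ± 0.56 for scrambled minus sham (edgeR adjusted p = 0.0975), and -0.92 (adjusted p = 0.372) in the reduced fit. DESeq2, and edgeR without scrambled library 2, called Cenpa in both comparisons, Cenpe for knockdown against scrambled and Espl1 for scrambled against sham. Cenpe was tested in 16 of 17 alternative settings, and its values in each library are not given here.

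Of 17 other Rb, E2F and DREAM genes, 15 were tested, and at an unadjusted p under 0.05, 5 were higher in scrambled than in sham and 5 lower in knockdown than in scrambled libraries, or 33.3% in each, against 29.2% and 32.4% of all genes. Rbl2, the gene of the Rb relative p130, a part of the DREAM repressor of quiescent cells, had 59.5 and 74.8 CPM in sham, 204, 78.6 and 195 in scrambled and 78.1, 78.5 and 73.5 in knockdown libraries. Tfdp2, a partner of E2F factors, had 20.9 and 30.6 CPM in sham, 116, 27.4 and 119 in scrambled and 26.0, 23.2 and 27.03 in knockdown libraries. Both were high in scrambled libraries 1 and 3, where E2f1 was low. For Rbl2 the differences were 1.24 ± 0.37 (edgeR adjusted p = 0.0908) and -1.05 ± 0.32 (edgeR adjusted p = 0.0829). For Tfdp2 they were 1.76 ± 0.54 (edgeR adjusted p = 0.0982) and -1.78 ± 0.47 (edgeR adjusted p = 0.0728). Lin52, a DREAM subunit, had a difference of -1.44 ± 0.42 for knockdown minus scrambled (edgeR adjusted p = 0.0795). DESeq2, and edgeR without scrambled library 2, called these 5 differences. They were 0.23 and -0.04 for Rbl2, 0.08 and -0.11 for Tfdp2 and -0.08 for Lin52 with libraries 1 and 3 left out, with adjusted p from 0.564 to 0.942.

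All 8 other nucleotide supply genes were tested; at an unadjusted p under 0.05 there was 1 for scrambled against sham (12.5%) and there were 2 for knockdown against scrambled (25%), against 29.2% and 32.4% of all genes. Umps, which completes uridine monophosphate, had 34.2 and 23.2 CPM in sham, 6.43, 19.5 and 11.6 in scrambled and 26.6, 30.2 and 27.4 in knockdown libraries, the scrambled values all below the others. The differences for Umps were -1.19 ± 0.39 (edgeR adjusted p = 0.106) and 1.16 ± 0.35 (edgeR adjusted p = 0.0852). Shmt1, an enzyme of folate metabolism, had differences of 1.421 ± 0.65 (edgeR adjusted p = 0.181) and -1.90 ± 0.58 (edgeR adjusted p = 0.0852). These were -0.55 and 0.52 for Umps and 0.29 and -0.76 for Shmt1 with libraries 1 and 3 left out, with adjusted p from 0.281 to 0.897. Without scrambled library 2 all 4 passed, and DESeq2 called 3 of them, all but that of Shmt1 for scrambled against sham.

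Markers of other cells that could enter the sort were summed in the same way, and their part in the members' values was not tested. Muscle fibre markers summed to 24.9 to 48.9 CPM in sham, 55.2 to 194 in scrambled and 37.6 to 47.0 in knockdown libraries, highest in scrambled library 3. Schwann cell markers summed to 31.4 to 33.4, 52.9 to 97.1 and 60.05 to 66.7 CPM in the same order, and muscle stem cell markers to 3.04 to 4.52, 6.62 to 15.3 and 4.82 to 7.92 CPM. Endothelial markers, most of them reads of Tek, summed to 492 to 502, 382 to 438 and 476 to 561 CPM. Tek was lower in every scrambled library than in sham. Pecam1 (the gene of CD31, on which the sort selected negative cells), Vwf and Cldn5 were higher there. Their means were 25.03, 11.8 and 3.78 CPM in sham and 55.6, 27.6 and 16.6 CPM in scrambled libraries. Cdh5 and Kdr overlapped between these groups. Their means were 36.9 and 17.7 CPM in sham and 44.6 and 21.3 CPM in scrambled libraries. Scrambled library 2 was below both sham libraries for Cdh5 and for Kdr. Of macrophage markers the sums were 13.7 to 17.3, 18.3 to 36.3 and 12.1 to 39.4 CPM. Pericyte markers summed to 122 to 151, 74.0 to 161 and 140.0 to 174 CPM. Cspg4 was lower in scrambled than in sham libraries (means of 15.3 and 97.8 CPM) and the other 4 had higher means (Rgs5 33.3 and 13.5, Abcc9 53.0 and 15.3, Kcnj8 16.4 and 3.71, Mcam 12.6 and 5.83 CPM), with no overlap for Rgs5, Abcc9 and Mcam. Tenocyte markers summed to 664 to 1036, 657 to 801 and 625 to 1257 CPM. Epithelial tumour cell markers summed to 4.46 to 7.15, 1.07 to 15.9 and 4.94 to 6.59 CPM, and red blood cell markers to 0.506 to 1.67, 4.52 to 18.0 and 1.17 to 3.94 CPM, all of them reads of Alas2, with 4 globin genes listed at 0. Neutrophil markers summed to 0.0558 to 3.04, 2.90 to 7.44 and 2.36 to 4.77 CPM, and mature adipocyte markers to 0 to 0.446, 1.48 to 2.64 and 0.411 to 0.949 CPM. Lymphocyte markers were at most 0.569 CPM.

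Some counts could hold reads of other genes. Besides Gins2 and Mcm7, exons on the opposite strand overlap Ccnd1 (23.4% of its exon bases), Cdk4 (19.7%, with Tspan31), Ccne2 (17.4%, with Ints8), Ccna2 (12.5%, with Exosc9) and Rb1 (8.11% with Rcbtb2 and 6.78% with Lpar6). They also overlap Plk1 (7.09%), Ccnd3 (4.11%, with Bysl), Ccnd2 (3.95% and 3.91%), Cdc20 (2.84%, with Elovl1), Cdk6 (2.63%) and Cdk2 (0.547%, with Pmel). The library kit marks strand, but the strand used in counting is not given in the sources used here, so reads of these pairs may not be separated. Ccnd3, Tyms, Ccnb1 and Ccnb2, like Pcna, have pseudogenes by name in the annotation.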

How the data were processed

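RNA sequencing of 8 libraries was analysed from the table of raw read counts per gene symbol that the authors deposited. Per the submitters' processing notes the build was mm10 and the tools included STAR, Bowtie, bcl2fastq 2.20, R 4.2.1 and DESeq2 1.36.0, with no roles given. How and on which strand reads were counted is not given in the sources used here. In R 4.3.3, edgeR 4.0.16 was run with filterByExpr (minimum count 10, minimum total 15), TMM scaling and a robust quasi-likelihood fit with 1 mean for each of the 3 groups and a spread shared by all 8 libraries. Tests were two-sided, and p-values had a Benjamini-Hochberg adjustment across the 13646 genes, with a threshold of 0.05. The standard error is the absolute log2 difference over the root of its F statistic. Errors of CPM are SDs. The fit was tested on simulated data with 1 mean for each group. Those data held no split within the scrambled group.

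Alternatives were DESeq2 1.42.0, limma-voom (limma 3.58.1), other scalings, no filter, the replicate number as a block, only the 2 groups compared, and leaving out each library. Leaving out scrambled libraries 1 and 3 together was added after seeing the data. Lengths, positions and overlaps came from GENCODE M21 (GRCm38, the same build as mm10), in which all 34 members were found, and promoters from RefSeq. Total counts ranged from 15647436 to 28340450 per library. The labels call the libraries biological replicates, and no 2 libraries were identical.

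The members and lists were chosen with earlier results of these data known. Values in every library are given for Mki67, Top2a, Ccnd1, Cdk4 and Rb1, for the 2 members with the smallest p in each comparison, for members called with all libraries in edgeR, and for members whose groups did not overlap; of each pathway list the 2 genes with the smallest p are named where none was called. Untested members are given by range.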

Additional observations from a re-analysis of the deposited data

How the results depend on the processing

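The counts of genes called depended on the software and on single libraries. DESeq2 called 6 members and 13 pathway genes for scrambled against sham, and 5 and 14 for knockdown against scrambled, where edgeR called 0. Over all genes DESeq2 called 15.5% and 17.4% in the same comparisons. Leaving out 1 library at a time gave 0 to 14 members called in each of these comparisons. For pathway genes it gave 0 to 45 and 0 to 55, the highest without scrambled library 2. In that fit 25.4% of all genes were called higher and 25.6% lower for scrambled against sham. For knockdown against scrambled the shares were 27.3% and 26.6%. With scrambled libraries 1 and 3 both left out, 1 member (Pcna) and 2 pathway genes (Cdkn1a and Timeless) were called for scrambled against sham and 1 pathway gene (Cdkn1a) for knockdown against sham. Without a filter 1 pathway gene (Cdkn1a) was called for scrambled against sham, and with only the 2 groups compared 1 (Cdkn1a) for knockdown against sham. The shares of all genes called without a filter, or with only the 2 groups compared, are not given here. The cause of these changes in the counts was not tested.

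Same-numbered libraries had correlations of their deviations from the group means between -0.0643 and 0.172, the last for scrambled and knockdown libraries 3. With 2 or 3 libraries in a group, such values cannot tell whether same-numbered libraries shared a batch. With the number as a replicate block, 0 members and 0 pathway genes were called in each comparison. Under the block the log2 difference of knockdown minus sham changed sign for Top2a (0.0294) and Rb1 (-7.96e-05).

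With scrambled libraries 1 and 3 left out, the scrambled minus sham difference changed sign for Ccne1 (-0.42), Ccne2 (-1.70), Cdk2 (-0.24), Gins2 (0.84), Tyms (0.24) and Mcm2 (0.30), and the knockdown minus scrambled difference for Ccne2 (0.79), Cdk2 (0.0209), Gins2 (-0.31), Rrm1 (-0.0579) and Mcm2 (-0.17). Leaving out 1 library at a time, scrambled minus sham ran from -2.10 to 0.20 for Mki67, -0.49 to 1.00 for Ccne1, -0.64 to 1.24 for Ccne2, -1.36 to 0.16 for Gins2 and -2.01 to 0.89 for Ccnb2, and knockdown minus scrambled from -0.19 to 0.43 for Rrm2. Knockdown minus sham ran from -0.43 to 1.87 for Mki67, -1.26 to 0.88 for Top2a, -0.10 to 0.59 for Ccnd1 and -0.0655 to 0.38 for Rb1. The sign changed without sham library 1 for Mki67 and Ccnb2 (scrambled minus sham) and Top2a and Rb1 (knockdown minus sham), and without sham library 2 for Ccne1 and for Mki67 (knockdown minus sham). It also changed without scrambled library 1 for Ccne1 (-0.0277), Ccne2 and Gins2, without scrambled library 3 for Gins2 (0.14), without scrambled library 2 for Rrm2, and without knockdown library 2 for Rrm2 (-0.0725), Top2a (0.0182) and Ccnd1. The mitotic members, and Cenpa among the other mitosis genes, rest on few reads, which limits what can be detected for them.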
